A study of Mus musculus with 3 samples.

Results

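The genes described here are 34 that serve the making of ribosomes in the nucleolus, taken by name from a fixed list out of the 27998 genes listed in each count matrix. They were Myc; the RNA polymerase I subunits Polr1a and Polr1b; the box C/D snoRNP proteins Fbl, Nop56, Nop58 and Rrp9; the box H/ACA snoRNP proteins Dkc1, Gar1, Nhp2 and Nop10; the small-subunit factors Heatr1, Wdr43, Wdr75, Nop14, Bms1, Tsr1, Imp3, Imp4, Rrp12 and Nob1; the large-subunit factors Bop1, Pes1, Wdr12, Rrs1, Nop2, Nop16, Rrp1, Gnl3 and Mybbp1a; and the nucleolar proteins Ncl, Npm1, Nolc1 and Ddx21. All 34 were found in the matrices, and all 34 passed the filter on low values, a mean of at least 10 CPM (UMIs of a gene when all UMIs of the library are scaled to 1000000) over the 3 libraries, which 7818 genes passed.

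The study profiled single cells sorted from C57BL/6 bone marrow as Lin-c-kit+, that is, without markers of mature blood lineages and with the receptor of stem and progenitor cells. The AML1/ETO mouse carried a heterozygous conditional knock-in of the Runx1-Runx1t1 fusion followed by mCherry, with Mx1-Cre, an interferon-inducible Cre that acts in cells other than blood stem cells too, and was induced with Poly[I:C]. Its cells were sorted into an mCherry library, which fluoresced, and a non_mCherry library, which did not, while the control cells were taken from a wild-type animal. The age and sex of the animals, and any Poly[I:C] given to the wild-type mouse, are not stated in the sources used here. The 3 libraries came from 2 mice, with 1 library in each group, so no difference has a replicate check and no test across samples is given; animal, sort and library cannot be told apart from the fusion. The intervals below are exact 95% intervals of the counts and cover counting error only.

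After filtering, 8889 control, 7878 non_mCherry and 10336 mCherry cells were summed, with median UMIs per cell of 15402, 9241.5 and 8217. Runx1t1, the partner gene of the fusion, was at 0.208, 0.333 and 8.42 CPM for control, non_mCherry and mCherry in turn, and Kit, the sorted receptor, was at 66.9, 56.6 and 270.3 CPM. Cells with at least 1 UMI of the proliferation genes Mki67 or Top2a, called cycling here, made up 78.4%, 67.7% and 36.1% of the libraries. After thinning to 5000 UMIs the shares were 63.0%, 62.3% and 26.7%. Cells under 5000 UMIs (481 control, 1617 non_mCherry and 750 mCherry) were left out there and wherever cells were thinned below, so these sets of cells differ. In T, NK and innate lymphoid-like cells, which should divide little, the unthinned share was 17.7% in control and 9.09% in non_mCherry at median depths of 3410.5 and 2903 UMIs. Malat1, a nuclear noncoding RNA, was at 4823, 5312 and 19700 CPM, and the median mitochondrial share of UMIs per cell was 1.87%, 1.87% and 2.50%. Markers of mast cells summed to 117.3, 209.7 and 11210 CPM, and markers of B cells to 64.8, 1721 and 48.5 CPM. In mCherry the mast sum was mostly Cpa3 (10470 CPM), with Cma1 at 548.2 and Slc18a2 at 171.2 CPM. Mcpt4, Tpsb2 and Tpsab1 were at 15.45, 5.13 and 0.0422 CPM there. Markers of erythroid cells summed to 635.3, 746.6 and 11.5 CPM. The libraries shared between 24 and 42 cell barcodes pairwise.

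Ribosome production starts in the nucleolus, where RNA polymerase I transcribes the long ribosomal RNA precursor. Small nucleolar ribonucleoproteins (snoRNPs) methylate it (box C/D) or convert uridines to pseudouridine (box H/ACA), and successive sets of assembly factors cleave, fold and export the small and large subunits. In blood progenitors this work is heavy during growth and division, and MYC is known as a regulator of many of these genes; it binds DNA with MAX at E-box sequences.

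Sequence upstream of the start site was taken from RefSeq (GRCm38.p6) for 28 of the 34 genes, in windows of 300 bases, 250 before and 50 after the start. The E-box CACGTG, which reads the same on both strands, was found in the windows of 6 of these 28 genes (21.4%; Imp4, Mybbp1a, Nop2, Pes1, Tsr1 and Wdr43), beside 8.09% of 27025 genes with a window. CACGCG, searched on both strands as CACGCG and CGCGTG, was found in 8 of the 28 (28.6%; Ddx21, Mybbp1a, Nhp2, Nolc1, Nop10, Nop16, Pes1 and Rrp1), beside 10.5% of genes; Mybbp1a and Pes1 hold both. A copy of CACGTG cannot overlap a copy of CACGCG or CGCGTG, whereas CACGCG and CGCGTG can overlap each other. A match describes the letters of the window and is not a measured binding site. The 27025 genes were not filtered on level, unlike the 7818 genes used as background elsewhere. All 34 genes passed that filter, so the motif shares compare unlike sets of genes. The 250 bases before the start are shown, 5′ to 3′ on the plus strand, for Imp4 and Nop2, as examples with CACGTG, and for Nolc1, which had among the lowest mCherry-to-control ratios below and holds CGCGTG; the capitals mark these motifs, which begin 121, 60 and 25 bases before the start. The genes themselves lie, in GENCODE's mouse annotation of GRCm38, at chr11:51619735-51623714 (Nhp2, plus strand), chr19:46075863-46085530 (Nolc1, plus), chr11:33152287-33163206 (Npm1, minus), chr1:86344719-86359400 (Ncl, minus) and chr15:61985391-61990374 (Myc, plus). The stretches lie at chr1:34439579-34439828, chr6:125131633-125131882 and chr19:46075597-46075846.
Imp4: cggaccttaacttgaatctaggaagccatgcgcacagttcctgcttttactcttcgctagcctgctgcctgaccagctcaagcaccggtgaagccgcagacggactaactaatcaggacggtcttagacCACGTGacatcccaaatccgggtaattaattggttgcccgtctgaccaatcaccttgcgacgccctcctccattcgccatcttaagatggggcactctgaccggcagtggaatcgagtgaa
Nop2: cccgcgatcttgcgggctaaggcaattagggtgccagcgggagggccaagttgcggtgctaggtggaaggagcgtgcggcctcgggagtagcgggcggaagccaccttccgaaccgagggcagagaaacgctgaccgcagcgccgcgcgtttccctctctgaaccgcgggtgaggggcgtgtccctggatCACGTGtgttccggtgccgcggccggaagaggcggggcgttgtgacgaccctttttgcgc
Nolc1: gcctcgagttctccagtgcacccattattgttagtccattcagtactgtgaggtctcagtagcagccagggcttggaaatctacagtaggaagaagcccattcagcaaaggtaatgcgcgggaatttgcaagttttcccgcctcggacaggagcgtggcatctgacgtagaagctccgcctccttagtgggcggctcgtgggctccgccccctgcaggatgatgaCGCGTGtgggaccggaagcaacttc

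Across all cells, 27 of the 34 genes were lower in mCherry than in control by a ratio of at least 1.5, and 0 were higher. The background was 20.3% of the 7818 genes lower and 24.3% higher. The ratio was taken as log2((CPM + 5)/(CPM + 5)), where 1.5-fold is 0.585 on the log2 scale and the added 5 CPM pulls the ratios of low genes towards 0. The median log2 ratio of the 34 was -0.94, beside 0.07 for all genes. Summed over the 33 genes other than Myc, the level was 9897 CPM (control), 8916 CPM (non_mCherry) and 4758 CPM (mCherry). The mCherry library was the lowest of the 3 for 33 genes, Myc being the exception, and control was the highest for 33. This order was counted for the 34 genes only, without a share over all genes. The libraries also differed in their mix of marker-defined lineages. Erythroid-like cells, the lineage with the highest summed level below, made up 12.9% (control), 14.1% (non_mCherry) and 0.0484% (mCherry) of cells. The part of this in the result was not tested. A CPM is a share of all UMIs, so a lower share and a rise of other transcripts cannot be told apart from it; the median UMI count per mCherry cell was itself the lowest of the 3.

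**Figure D1:**
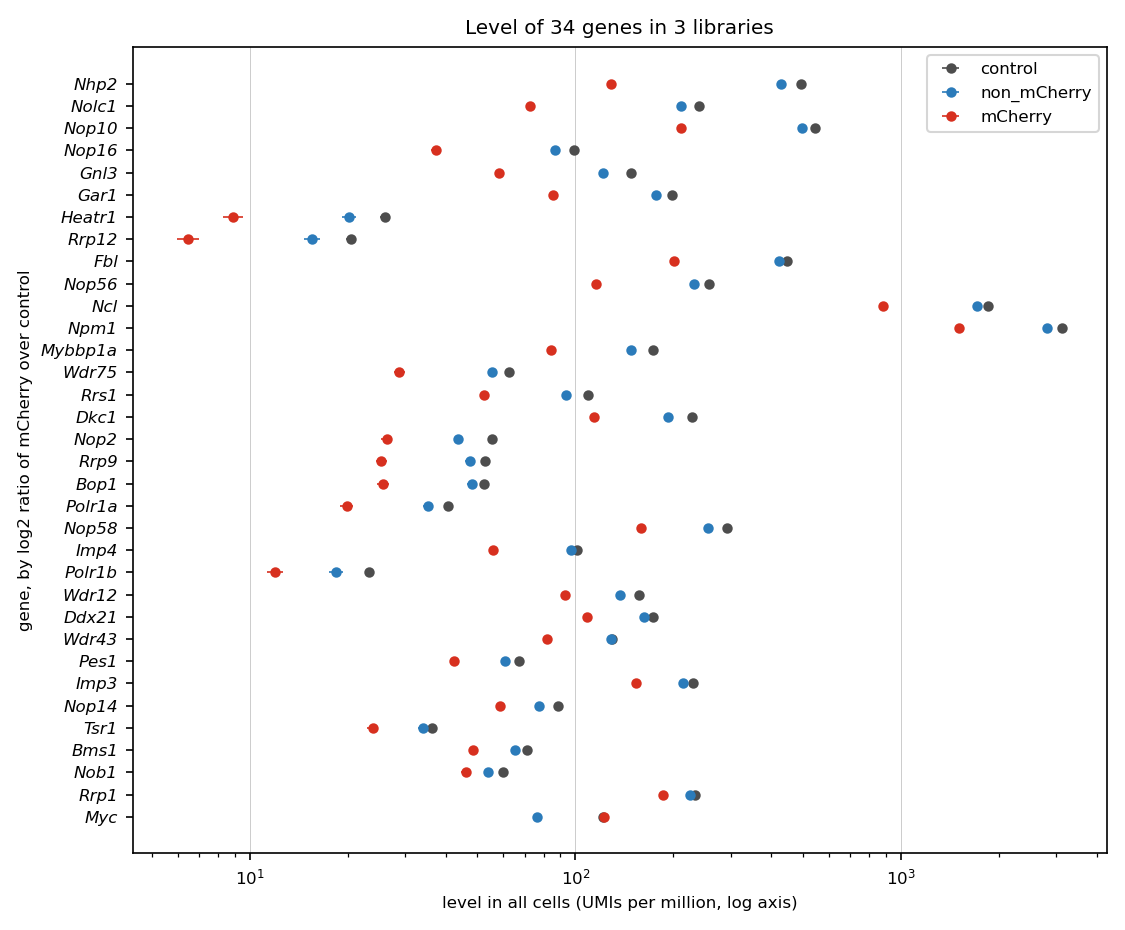
Level of each of the 34 genes (rows, ordered by the mCherry-to-control log2 ratio) in the sum of all cells of the control, non_mCherry and mCherry libraries, in CPM on a log axis; horizontal lines are exact 95% counting intervals, mostly narrower than the points. The mCherry point lies left of both others for every gene except Myc, where control (121.2 CPM) and mCherry (122.5 CPM) coincide and non_mCherry (76.3 CPM) lies lower.

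Myc, the transcription factor, stood apart from the other 33 genes. Its level was 121.2 CPM (control), 76.3 CPM (non_mCherry) and 122.5 CPM (mCherry), so that control and mCherry were alike and non_mCherry was low. The mCherry-to-control log2 ratio was 0.01 (1.01-fold, interval 0.987 to 1.03), and it turned to -0.18 with median-of-ratios scaling. Myc was the 1 gene of the 34 higher in mCherry than in non_mCherry by a ratio of at least 1.5, at 1.61-fold (1.56 to 1.66). The share over all genes was 24.0%. Myc was also the 1 gene lower in non_mCherry than in control by that ratio, at 1.59-fold (1.55 to 1.64), beside 0.755% of all genes. The non_mCherry library held 26.0% B-like cells, against 0.439% in control and 0.135% in mCherry, and Myc was at 27.0 CPM in its B-like cells. Without B-like cells, an alternative added after seeing the data, the log2 ratio of non_mCherry over control was -0.50 and that of mCherry over non_mCherry 0.51, both short of the threshold.

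Of the 11 genes of the wider MYC network, 8 passed the filter, and in mCherry against control 5 of these were higher and 0 lower, beside the 24.3% and 20.3% of all genes given above; their median was 0.69 on the log2 scale. In non-cycling cells, 3 of the 8 were higher and 0 lower, beside a background of 18.4% and 16.3%. Mxd1, which pairs with MAX in place of MYC and represses, was at 22.0 CPM (control), 21.4 CPM (non_mCherry) and 169.7 CPM (mCherry). Mxd4, of the same family, was at 46.9, 60.1 and 208.8 CPM. Both were thus several-fold higher in mCherry. Control and non_mCherry lay close together for Mxd1, whereas Mxd4 was somewhat higher in non_mCherry than in control (log2 ratio 0.33). Mlxip (log2 ratio 1.04), Mnt (0.72) and Mga (0.66) were the other three past the threshold, of which Mnt (0.42) and Mga (0.46) missed it in non-cycling cells, where Mlxip was at 0.87, Mxd4 at 1.29 and Mxd1 at 2.23. Mxi1 (0.52), Max itself (0.10), the shared partner, and Mlx (-0.37), the partner of Mlxip, did not pass over all cells.

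Both RNA polymerase I subunits were lower in mCherry than in control by more than the ratio of 1.5, beside 20.3% of all genes. Polr1a, the largest subunit, was at 40.8 CPM (control), 35.3 CPM (non_mCherry) and 19.9 CPM (mCherry), a log2 ratio of mCherry over control of -0.88. Polr1b, which forms the catalytic core with it, was at 23.3, 18.4 and 12.0 CPM (-0.74). Both had their lowest level in mCherry, and non_mCherry lay between. Among the 11 other polymerase I subunit and initiation factor genes of a wider list, grouped so after their values were seen, 3 were lower and 0 were higher, beside 20.3% and 24.3% of all genes. The 3 were the subunit genes Cd3eap (-0.95), Polr1c (-0.92) and Polr1d (-0.59). The other 8 ran from -0.30 for Taf1d to 0.44 for Taf1b, with the transcription factor gene Ubtf at 147.6 CPM in control and 165.6 CPM in mCherry.

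All 4 box C/D genes were lower in mCherry than in control, beside 20.3% of all genes. Fbl, the methyltransferase fibrillarin, was at 445.5 CPM (control), 423.0 CPM (non_mCherry) and 200.6 CPM (mCherry), 2.22-fold lower in mCherry than in control (2.19 to 2.26). Nop56, a core protein of these particles, was at 258.0, 230.8 and 116.1 CPM, and its partner Nop58 at 293.1, 255.9 and 158.6 CPM. For these 3 genes the control and non_mCherry levels lay much nearer to each other than to mCherry. Rrp9, specific to the U3 particle, was at 52.9, 47.4 and 25.3 CPM.

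All 4 box H/ACA genes were lower as well (20.3% of all genes), and Nhp2 had the lowest ratio of the 34. Nhp2 was at 493.8 CPM (control), 427.9 CPM (non_mCherry) and 128.5 CPM (mCherry), 3.84-fold lower than in control (3.77 to 3.92); 1.62% of all genes had a lower log2 ratio than its -1.90. Nop10, a small protein of the same particle, was at 543.2, 498.0 and 211.6 CPM, 2.57-fold lower (2.53 to 2.61). Gar1 was at 197.9, 177.1 and 85.2 CPM, and Dkc1, the pseudouridine synthase dyskerin, at 227.6, 193.2 and 114.1 CPM. The 4 proteins of this particle thus differed among themselves, with log2 ratios of -1.90 for Nhp2, -1.34 for Nop10, -1.17 for Gar1 and -0.97 for Dkc1. Exons of Nhp2 overlap those of Rmnd5b on the opposite strand and exons of Dkc1 those of Mpp1, and whether counting used strand is not given in the sources used here; 14 of the 34 genes have such an overlap, so reads of the partners may be mixed.

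Of the 10 small-subunit factors, 5 were lower, beside 20.3% of all genes. Heatr1, a large scaffold needed early in processing, was at 26.0 CPM (control), 20.2 CPM (non_mCherry) and 8.89 CPM (mCherry) (log2 ratio -1.16). Rrp12, which takes part in late maturation and export, was at 20.5, 15.5 and 6.48 CPM (-1.15). Both rest on low levels, and the 5 CPM added before the ratio holds their log2 values nearer to 0: the plain folds were 2.92 (2.71 to 3.15) and 3.17 (2.90 to 3.46). Wdr75, with Heatr1 in the complex that binds the precursor first, was at 62.4, 55.5 and 28.8 CPM, and Wdr43, of the same complex, at 129.8, 129.0 and 81.8 CPM. Imp4, a U3-associated protein, was at 100.9, 96.8 and 56.0 CPM. The 5 that missed the threshold all had levels below control: Imp3, the partner of Imp4, was at 230.6, 214.4 and 153.4 CPM (-0.57), Nop14 at -0.55, the late factor Tsr1 at -0.52, the GTPase Bms1 at -0.51 and Nob1, the nuclease of the last cleavage of 18S precursor RNA, at -0.35. Imp3 and Nop14 lay just short of 0.585 in size.

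Of 9 large-subunit factors, 8 were lower, beside 20.3% of all genes. Nop16 was at 99.4 CPM (control), 86.4 CPM (non_mCherry) and 37.4 CPM (mCherry), 2.66-fold lower than in control (2.57 to 2.76), and Gnl3, the GTPase nucleostemin, was at 147.8, 121.2 and 58.1 CPM, 2.54-fold lower (2.47 to 2.62). Mybbp1a was at 173.4, 147.9 and 83.9 CPM, and Rrs1, which helps to bring in the 5S particle, at 109.3, 93.5 and 52.4 CPM. Each of these 4 genes ran in the order control, non_mCherry, mCherry, with the larger step before mCherry. The 3 proteins of the PeBoW complex, which acts in cleavage of the large-subunit precursor, had log2 ratios of -0.91 (Bop1), -0.73 (Wdr12) and -0.61 (Pes1), and Nop2, an RNA methyltransferase, had -0.95. Rrp1 was the exception: it was at 232.5, 225.1 and 186.4 CPM, with a log2 ratio of -0.31, the value nearest 0 among the 33 genes.

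The genes of the 4 general nucleolar proteins were lower too, beside 20.3% of all genes. Npm1, the nucleolar chaperone nucleophosmin, was at 3130 CPM (control), 2802 CPM (non_mCherry) and 1507 CPM (mCherry), and Ncl, nucleolin, was at 1855, 1708 and 880.3 CPM. These were 2.08-fold (2.06 to 2.09) and 2.11-fold (2.09 to 2.12) lower in mCherry than in control. Nolc1, a chaperone of snoRNPs, was at 240.4, 210.6 and 72.5 CPM, 3.31-fold lower (3.23 to 3.40). Ddx21, an RNA helicase, was at 173.4, 162.7 and 108.6 CPM (log2 ratio -0.65). Npm1 and Ncl carry much of the summed UMIs of the list; without them and Myc, the remaining 31 genes summed to 4911 CPM (control), 4407 CPM (non_mCherry) and 2371 CPM (mCherry).

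Against non_mCherry, from the same mouse, 23 of the 34 genes were lower in mCherry and Myc was higher, beside a background of 18.7% lower and 24.0% higher. The median log2 ratio was -0.76 (all genes 0.09). This comparison and the one with control share the mCherry library. All 23 were also among the 27 lower against control; Polr1b, Wdr12, Pes1 and Ddx21 were past the threshold against control alone, with log2 ratios against non_mCherry of -0.46, -0.55, -0.48 and -0.56. Nhp2 had a log2 ratio of -1.70, Nolc1 -1.48 and Nop10 -1.22, again the lowest values. Among cells with Malat1 at 0.5% to 1.5% of UMIs, chosen after seeing the data, 8 were lower (background 11.3%) with a median of -0.46; the median Malat1 share was then 0.803% in non_mCherry and 1.05% in mCherry.

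Between non_mCherry and control, 1 gene was lower, Myc, and 0 were higher, beside a background of 0.755% lower and 1.87% higher. All 34 log2 ratios were nevertheless below 0, with a median of -0.16 (all genes -0.03), from -0.01 for Wdr43 to -0.64 for Myc. Of all genes, 55.3% lay below the value of Wdr43, so a ratio below 0 was common here. Rrp12 (-0.31), Nop2 (-0.31) and Heatr1 (-0.30) followed Myc. Fbl was at 423.0 CPM in non_mCherry and 445.5 CPM in control, and Rrp1 at 225.1 and 232.5 CPM, small steps that still exceed the counting error of these sums and that no replicate can place against the spread between animals. Without B-like cells the median was -0.09.

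**Figure D2:**
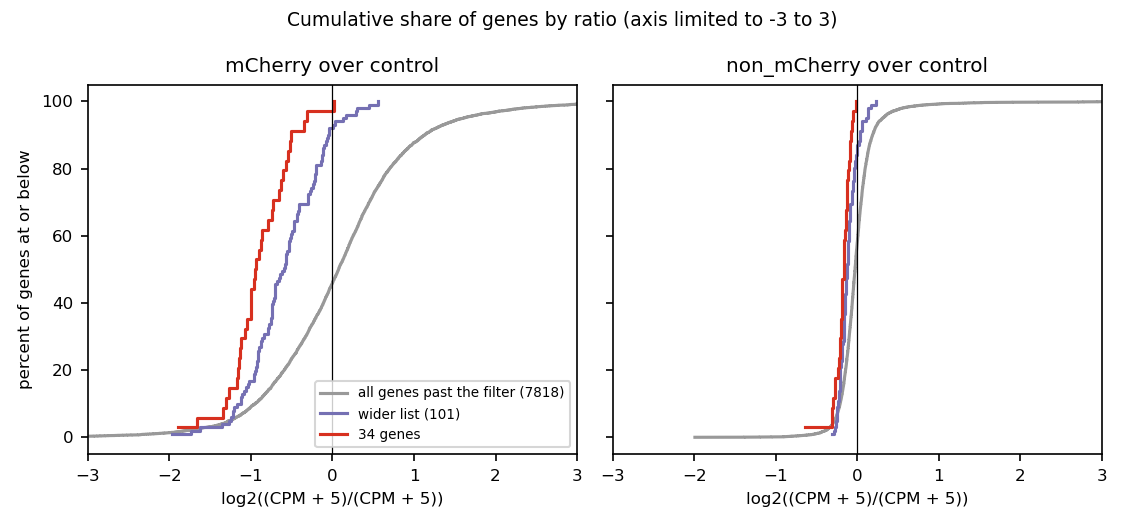
Cumulative share of genes (vertical axis, percent) at or below a log2 ratio (horizontal axis) for all 7818 genes past the filter, the 101 past it in a wider ribosome biogenesis list, and the 34 genes, for mCherry over control (left) and non_mCherry over control (right). The curve of the 34 genes lies left of the others on the left (median -0.94 beside -0.59 and 0.07), and by a small distance on the right (median -0.16 beside -0.12 and -0.03).

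A wider list of 105 ribosome biogenesis genes, none of them among the 34, gave 101 genes past the filter. In mCherry against control, 52 of these had lower and 0 had higher levels by a ratio of 1.5, beside 20.3% and 24.3% of all genes; their median was -0.59. The lowest were Lyar, a nucleolar zinc finger protein, at 301.6 CPM (control), 263.4 CPM (non_mCherry) and 73.0 CPM (mCherry) (-1.97), Mrto4, a large-subunit assembly factor, at 197.2, 176.4 and 55.8 CPM (-1.73), Wdr18 (-1.62), Nip7 (-1.35) and Bysl, a small-subunit factor (-1.27). The log2 ratio of Lyar was thus close to that of Nhp2. At the other end stood the large-subunit factor Nsa2 at 236.0, 279.0 and 349.4 CPM (0.56), Taf1b (0.44), Znrd1 (0.31), Gltscr2 (0.29) and Ubtf (0.16), none of which passed the threshold.

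Cells were then split into cycling and non-cycling, since the libraries differed in this share. In non-cycling cells (1918 control, 2541 non_mCherry and 6607 mCherry), 24 of the 34 genes were at lower and 0 at higher levels in mCherry against control, beside a background of 16.3% and 18.4%. The median was -0.76 and the sum of the 33 genes 7913, 6644 and 4449 CPM for control, non_mCherry and mCherry in turn. Nhp2 was at 348.9, 268.8 and 114.2 CPM in non-cycling cells, Nolc1 at 171.1, 132.2 and 62.7 CPM, and Nop10 at 450.6, 380.8 and 190.1 CPM. The same 3 genes therefore led among non-cycling cells. Of the 27 genes lower over all cells, 23 were lower here also; Bop1, Ddx21, Pes1 and Wdr43 missed the threshold, at -0.55, -0.50, -0.49 and -0.46, and Imp3 passed it at -0.61. Genes of S phase were lower in mCherry in 9 of 10 cases and those of G2 and M phase in 7 of 10 within these cells. Mki67 and Top2a are in the G2 and M list, are 0 here by definition and could not be lower. The S phase genes summed to 1016 CPM (control), 821.2 CPM (non_mCherry) and 342.3 CPM (mCherry). The G2 and M genes summed to 142.4, 131.6 and 36.4 CPM. The non-cycling cells thus hold unequal shares of cells in division, and the part of this in the result was not tested. Where cells with a UMI of any of 10 cycle genes were left out in place of 2, 16 of 34 were lower (background 10.5%).

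Against non_mCherry the count in non-cycling cells was smaller and moved with the setting. There 10 of 34 genes were lower in mCherry and 0 higher (background 12.8% and 17.1%), with a median of -0.50: Nhp2 (-1.20), Nolc1 (-1.02), Nop10 (-0.98), Fbl (-0.85), Nop16 (-0.85), Nop56 (-0.70), Gar1 (-0.67), Heatr1 (-0.64), Rrs1 (-0.64) and Gnl3 (-0.62). The count was 23 when cells were thinned to 5000 UMIs before the cycling call (background 17.9%), with cells under 5000 UMIs left out. It was 4 with the wider list of cycle genes (background 9.04%). Myc kept the opposite sign, at 86.3 CPM in non_mCherry and 129.9 CPM in mCherry (0.56). Between non_mCherry and control, Myc (-0.71) was the 1 gene lower among non-cycling cells and 0 were higher, beside a background of 1.04% and 2.43%; the median was -0.28, with Nop2 (-0.54), Rrp12 (-0.46) and Heatr1 (-0.45) next.

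In cycling cells (6971 control, 5337 non_mCherry and 3729 mCherry), the same 27 genes as over all cells were lower in mCherry, none of the others were higher (background 17.6% and 24.4%), with a median of -0.86. The 33 genes summed to 10180, 9433 and 5154 CPM for control, non_mCherry and mCherry in turn. Cycling mCherry cells thus had a lower summed level than the non-cycling cells of either other library. Against non_mCherry, 22 were lower and 0 higher (background 16.9% and 25.0%). Between non_mCherry and control, Myc alone was lower and 0 were higher (background 0.767% and 1.74%).

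**Figure D3:**
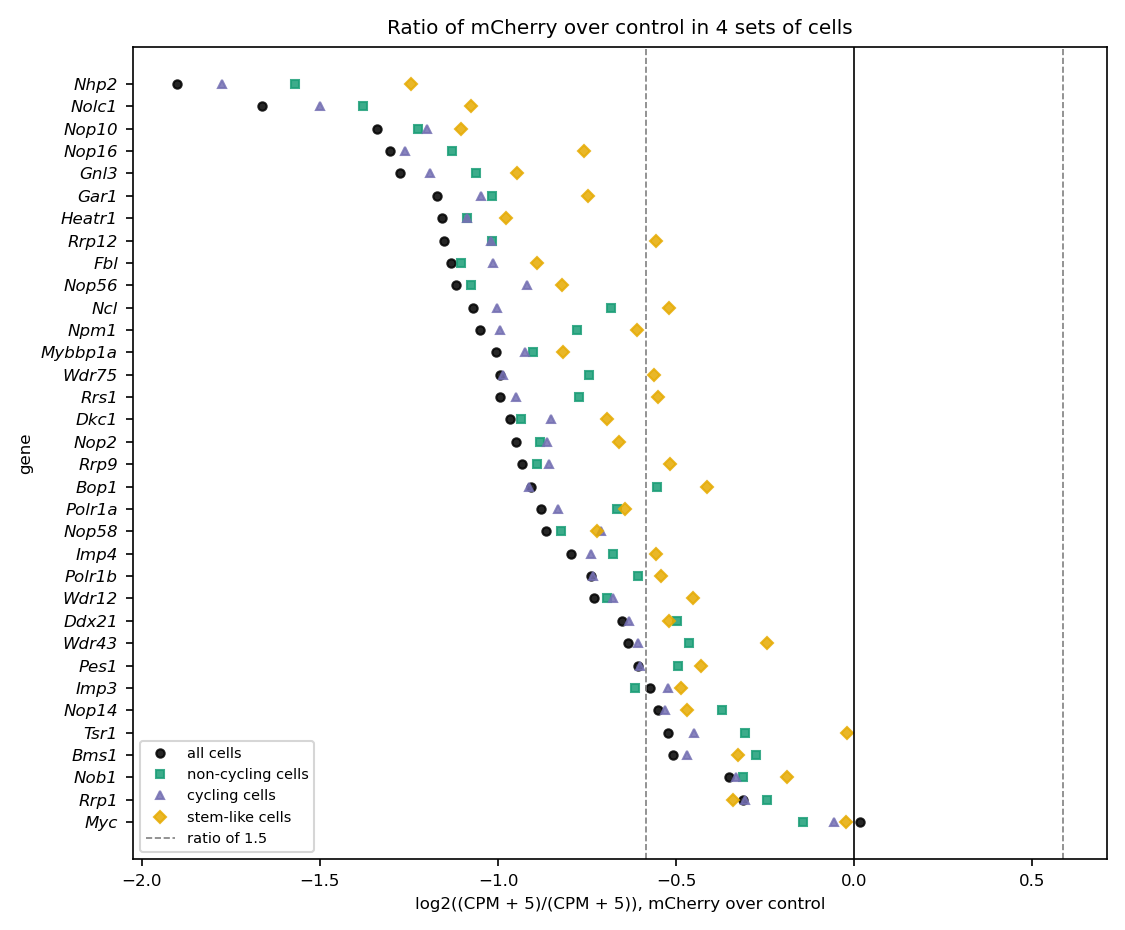
log2((CPM + 5)/(CPM + 5)) of mCherry over control (horizontal axis) for each of the 34 genes (rows) in all cells, non-cycling cells, cycling cells and stem-like cells; dashed lines mark a ratio of 1.5. Nearly all points lie left of 0, and the stem-like values lie nearer to 0 than the values over all cells for most genes (medians -0.56 and -0.94).

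Within each library, cycling cells had slightly more of these transcripts than non-cycling cells. In control 0 of 34 genes passed the ratio of 1.5 in either direction (background 5.73% lower and 4.17% higher), and the median of cycling over non-cycling was 0.24 on the log2 scale. In non_mCherry 3 were higher, Nhp2 (0.78), Nolc1 (0.77) and Ncl (0.69), and 0 lower (background 7.44% lower and 6.82% higher), with a median of 0.39. In mCherry 0 were past it (background 0.192% lower and 3.77% higher), with a median of 0.16. Myc ran the other way in all 3 libraries, at 143.9 CPM in non-cycling against 118.0 CPM in cycling control cells, 86.3 against 74.0 CPM in non_mCherry and 129.9 against 113.1 CPM in mCherry. Cycling cells were also deeper, with median UMIs of 17459 against 8545 in control, 11802 against 5610 in non_mCherry and 9691 against 7715 in mCherry; with cells thinned to 5000 UMIs before the call, the medians were 0.16, 0.16 and 0.11, and 0 genes passed in any library.

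The level of the 33 genes followed the UMI count of a cell within every library. From cells with 2000 to 4000 UMIs to those with 24000 or more, the sum went from 6585 to 12410 CPM in control, from 4312 to 12890 CPM in non_mCherry and from 3666 to 6690 CPM in mCherry. At 6000 to 8000 UMIs it was 6736 CPM (control), 6580 CPM (non_mCherry) and 4159 CPM (mCherry), and at 8000 to 12000 UMIs it was 8194, 7869 and 4607 CPM. Control and non_mCherry therefore lay close together in these bands, as at 12000 to 16000 UMIs (8963 and 8654 CPM) and 16000 to 24000 UMIs (9464 and 9616 CPM). In shallower cells they lay apart, at 6684 and 5457 CPM (4000 to 6000 UMIs) and 6585 and 4312 CPM (2000 to 4000 UMIs). The mCherry level lay below both in each of the 7 bands. Cells of a band were not matched for cycling: at 6000 to 8000 UMIs the share was 41.59% (control), 55.61% (non_mCherry) and 25.65% (mCherry). Restricted to cells with 6000 to 12000 UMIs, 24 of 34 genes were lower in mCherry than in control (background 16.0%), and restricted to cells with Malat1 at 0.5% to 1.5% of UMIs, 24 were lower (background 14.3%); both restrictions were chosen after seeing the data.

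**Figure D4:**
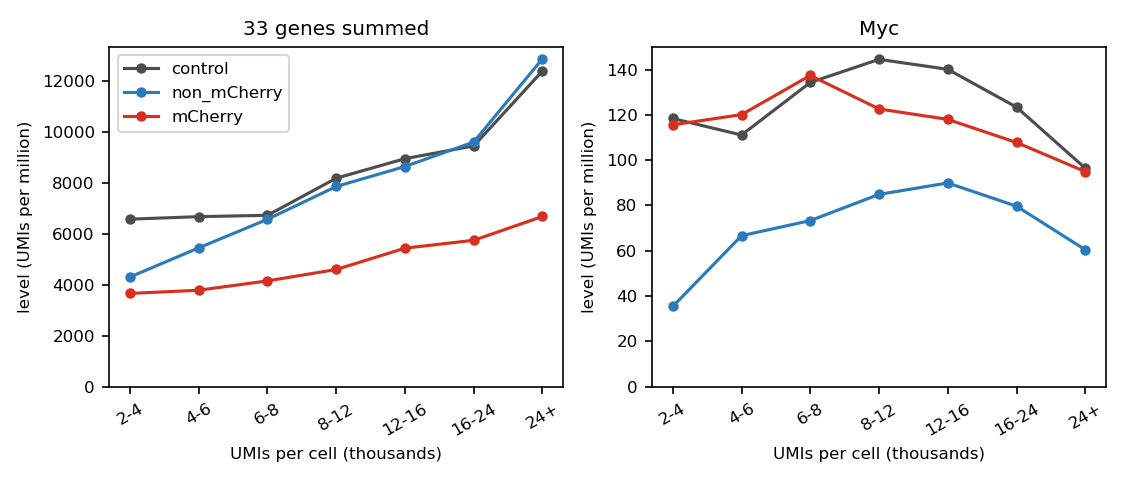
Summed level of the 33 genes without Myc (left) and level of Myc (right), in CPM, by the UMI count of the cells (horizontal axis, 7 bands), for the 3 libraries. The sum is higher in bands of more UMIs in each library, from 3666 to 6690 CPM in mCherry and from 6585 to 12410 CPM in control, whereas Myc shows no such steady order, and non_mCherry lies lowest for Myc in every band.

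Lineages were set by marker genes that include none of the 34, with a scoring rule made after seeing the data; a lineage is a range of a score, not a cell type in itself, and the unassigned share was 22.9% (control), 19.4% (non_mCherry) and 54.6% (mCherry). Erythroid-like cells (1149 control, 1109 non_mCherry and 5 mCherry) had the highest summed level of the 33 genes, 14990 CPM in control and 13270 CPM in non_mCherry. Megakaryocyte-like and neutrophil-directed cells were at 9335 and 9275 CPM in control, followed by monocyte-directed (7930), stem-like (7800), lymphoid-primed (7612), neutrophil-like (6377) and basophil-like cells (5328). The order was similar in non_mCherry, from 8892 CPM in megakaryocyte-like cells to 5230 CPM in basophil-like cells, with B-like cells at 6756 CPM and T, NK and innate lymphoid-like cells lowest at 4408 CPM. These lineages differ in depth, with median UMIs of 20130 in erythroid-like and 9448 in basophil-like control cells, and in cycling share (88.6% and 55.4%). With 1 library per group, neighbours in this order cannot be placed against a spread between animals.

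Single genes showed the range. Ncl was at 3320 CPM in erythroid-like, 1626 CPM in neutrophil-directed and 901.4 CPM in basophil-like control cells, and Npm1 at 4793, 2966 and 1648 CPM. Nolc1 was at 422.5, 213.4 and 100.1 CPM, and Nhp2 at 686.0, 508.5 and 204.5 CPM. Erythroid-like cells were thus highest and basophil-like cells lowest among these 3 lineages for all 4 genes. Myc had another order: 135.1 CPM in neutrophil-directed, 137.9 CPM in stem-like and 144.0 CPM in lymphoid-primed cells of control, against 91.8 CPM in erythroid-like and 77.9 CPM in basophil-like cells.

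**Figure D5:**
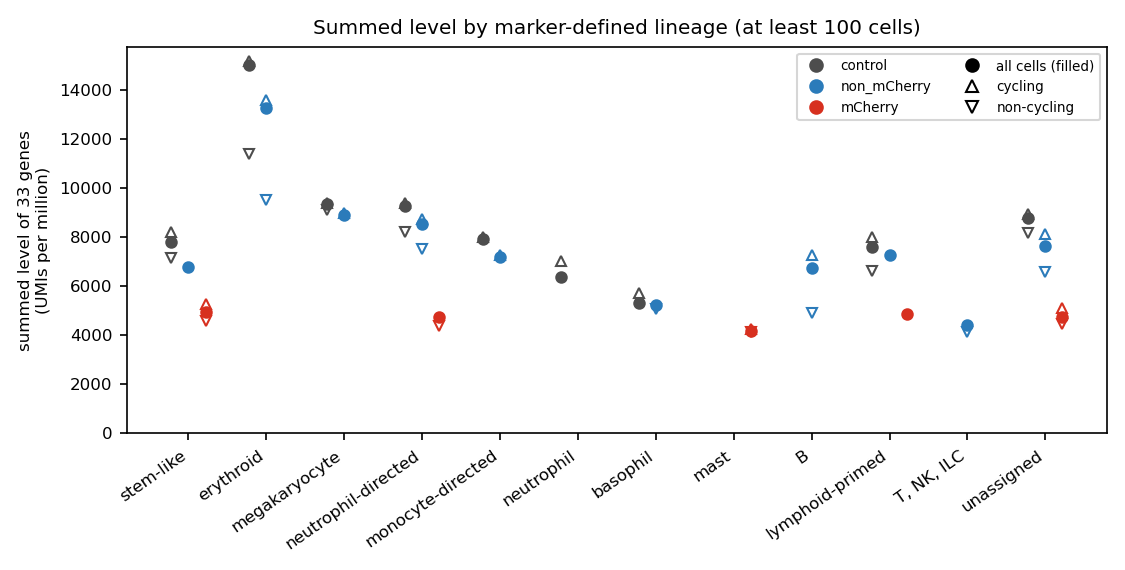
Summed level of the 33 genes without Myc (vertical axis, CPM) in marker-defined lineages with at least 100 cells, for control, non_mCherry and mCherry; filled circles are all cells of a lineage, triangles its cycling and non-cycling cells where these number at least 100. Every mCherry circle lies between 4153 and 4923 CPM, and erythroid-like cells of the other libraries are the highest, at 14990 and 13270 CPM.

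Within lineages, few genes passed the ratio of 1.5 between non_mCherry and control, both among the 34 and among all genes. The count of genes lower in non_mCherry by a ratio of 1.5 was 0 in stem-like (background 4.82%), erythroid-like (0.230%), megakaryocyte-like (1.01%), neutrophil-directed (0.460%) and basophil-like cells (3.79%). None of the 34 was higher in these lineages, where the background of higher genes was 3.57%, 0.767%, 1.15%, 0.767% and 1.5% in the same order. The count was 1 in monocyte-directed cells (0.972%; 0 higher, 0.537%), where Myc was at 49.4 CPM in non_mCherry and 93.4 CPM in control, and 3 in lymphoid-primed cells (4.40%; 0 higher, 2.06%): Myc (-0.95), Nop2 (-0.68) and Heatr1 (-0.59). Medians ran from -0.20 in stem-like and erythroid-like cells to 0.03 in basophil-like cells. Myc was therefore past the threshold in 2 of these 7 lineages, with neutrophil-directed (135.1 CPM in control, 93.2 CPM in non_mCherry; -0.51) and megakaryocyte-like cells (136.8 and 91.9 CPM; -0.55) just short of it, and was at 91.8 and 82.1 CPM in erythroid-like cells.

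The genes of mCherry and control were compared in 1 marker class, the stem-like cells, defined by Hlf, Mecom, Procr, Meis1, Mllt3, Fgd5, Esam and Angpt1. There were 432 in control, 131 in non_mCherry and 3168 in mCherry. Of the other classes, neutrophil-directed (3237 control, 215 mCherry) and lymphoid-primed cells (308 and 140) also numbered at least 100 in both. Their 33 genes summed to 9275 and 4726 CPM, and to 7612 and 4863 CPM. In stem-like cells, 15 of 34 genes were at lower and 0 at higher levels in mCherry against control, beside a background of 11.6% lower and 12.7% higher, and the median was -0.56. The 33 genes summed to 7800 CPM (control), 6769 CPM (non_mCherry) and 4923 CPM (mCherry). Nhp2 was at 308.9, 238.4 and 127.6 CPM, Nop10 at 452.1, 402.2 and 207.8 CPM, and Nolc1 at 165.7, 131.9 and 76.0 CPM. The 15 were those 3 with Heatr1 (-0.98), Gnl3 (-0.95), Fbl (-0.89), Nop56 (-0.82), Mybbp1a (-0.82), Nop16 (-0.76), Gar1 (-0.75), Nop58 (-0.72), Dkc1 (-0.70), Nop2 (-0.66), Polr1a (-0.64) and Npm1 (-0.61), and each was also lower over all cells. Wdr75, Imp4 and Rrp12 fell just short at -0.56 each and passed in non-cycling stem-like cells, at -0.81, -0.66 and -0.79. Ncl (-0.52) did not pass, and Tsr1 was at 27.8 CPM in control and 27.4 CPM in mCherry.

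The stem-like cells of the 3 libraries were not alike in their own markers. Hlf was at 262.4 CPM (control), 190.1 CPM (non_mCherry) and 445.0 CPM (mCherry), and Mecom at 79.1, 64.8 and 14.9 CPM. The summed level of mast cell markers had a median over stem-like cells of 0 CPM (control), 128.1 CPM (non_mCherry) and 5977 CPM (mCherry). Over all mCherry cells, 1 gene, Cpa3, held most of this sum, 10470 of 11210 CPM. Malat1 was at 9880, 10890 and 18860 CPM in the stem-like cells. Cycling shares were 51.9%, 42.7% and 40.0%, and 25, 16 and 46 of the cells lay within 10% above the score threshold. The part of these in the result was not tested, apart from the following measurements. In non-cycling stem-like cells (208 control, 1901 mCherry), 19 genes were lower and 0 higher (background 11.3% and 13.8%); in cycling ones, 14 and 0 (background 10.7% and 13.1%); among cells with Malat1 at 0.5% to 1.5% of UMIs, 15 were lower (background 9.98%). Myc was at 137.9 CPM (control), 102.2 CPM (non_mCherry) and 135.6 CPM (mCherry).

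Against the 131 stem-like cells of non_mCherry, 10 genes were lower in mCherry and 0 higher (background 9.47% and 15.0%), with a median of -0.45. These were Nop10 (-0.94), Nhp2 (-0.88), Nolc1 (-0.76), Gar1 (-0.76), Imp4 (-0.72), Mybbp1a (-0.65), Fbl (-0.63), Rrp12 (-0.63), Wdr43 (-0.62) and Ddx21 (-0.59). The few non_mCherry cells limit the precision: Rrp12 rested on 15.4 CPM with an interval of 8.41 to 25.8 CPM.

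Within the mCherry library the 33 genes varied little between marker classes. Their sum was 4923 CPM in stem-like cells, 4153 CPM in the 960 mast-like cells, 4726 CPM in neutrophil-directed, 4863 CPM in lymphoid-primed and 4737 CPM in unassigned cells. Between mast-like and stem-like cells, 1 gene was lower in mast-like cells by a ratio of 1.5, Rrp12, at 3.26 and 8.19 CPM, and 0 were higher (background 4.83% and 2.84%), with a median of -0.23. Polr1a (-0.54) and Myc (-0.48, 95.6 and 135.6 CPM) came next. Mast-like cells were shallower, with median UMIs of 6982 against 8662, and less often cycling, 27.8% against 40.0%.

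At a stricter ratio of 2, 13 of the 34 genes were lower in mCherry than in control over all cells (background 9.08%), 10 in non-cycling cells (6.49%) and 3, Nhp2, Nop10 and Nolc1, in stem-like cells (3.16%). Over all cells the 13 were these 3 with Nop16, Gnl3, Gar1, Heatr1, Rrp12, Fbl, Nop56, Ncl, Npm1 and Mybbp1a. Against non_mCherry, 6 genes were lower (8.21%) and 0 higher (11.5%) over all cells, and in non-cycling cells 2 were lower (5.12%), Nhp2 and Nolc1. Between non_mCherry and control, 0 genes were lower over all cells (0.153%), in non-cycling (0.230%), monocyte-directed (0.269%) or lymphoid-primed cells (0.767%). In non_mCherry, 0 genes were higher by this ratio in cycling than in non-cycling cells (2.56%).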

How the data were processed

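Single-cell RNA libraries (10x Genomics, read on a NovaSeq 6000 as 150-bp pairs, per the labels' protocols) were deposited as 3 matrices of UMI counts per gene and cell, not normalized. The submitters' processing notes name Cell Ranger 6.1.2 and mm10, whereas the file headers give software version 3.1.0; whether counting used strand, and whether doublets were removed before deposit, is not given in the sources used here. The matrices held 9782 (control), 9751 (non_mCherry) and 11323 (mCherry) barcodes. Cells with at least 1000 genes, at least 2000 UMIs and at most 10% mitochondrial UMIs were kept, and cells with a Scrublet-type doublet score of at least 0.25 (2000 variable genes, 30 components, simulated doublets at 2 per cell) were left out: 177 (1.95%), 178 (2.21%) and 83 (0.797%). The kept cells held 143962669, 87192967 and 94816046 UMIs.

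Counts were summed over cells and scaled to a total of 1000000 UMIs per library (CPM). With 1 library per group no test was run; a gene was counted as lower or higher at a ratio of 1.5 after adding 5 CPM, among genes with a mean of at least 10 CPM. Intervals are exact Poisson or binomial at 95%. UMIs remove PCR copies, and the intervals cover counting error only. A cell was given a lineage where its mean scaled marker level was at least 0.35, led the next lineage by 0.1 and rested on at least 3 detected markers. All 34 genes were named, and of the wider lists the 5 lowest and 5 highest log2 ratios. The genes and lists were chosen with earlier results of these data known, and the lineage scoring rule, the B-cell, UMI-range and Malat1 alternatives after seeing the data. Gene positions were matched for 27645 of 27998 identifiers. Counting and calling steps were tested on simulated data. Python 3.11.15, numpy 2.4.6, scipy 1.17.1, pandas 2.3.3, scikit-learn 1.9.0 and matplotlib 3.10.9 were used.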

Additional observations from a re-analysis of the deposited data

How the results depend on the processing

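No paired analysis was possible because each group has 1 library, and for the same reason no replicate could be left out; every statement rests on 2 mice, and the cause of each change below was not tested. The count of the 34 genes lower in mCherry than in control ranged from 24 to 31 over the alternatives other than the ratio of 2. The shares beside it were 14.3% to 26.6% of all genes past the filter, and 6.73% of all genes with no filter. The count of 31 came with median-of-ratios scaling, beside 26.6% of all genes. Its scaling factors were 0.953 (control), 0.960 (non_mCherry) and 1.09 (mCherry). In another comparison, mCherry over non_mCherry, this scaling moved the median of all genes from 0.09 to -0.07. For mCherry over control, the median log2 ratio of the 34 genes ranged from -1.11 to -0.68, and 0 genes were higher in any setting. At a ratio of 2 the lower counts were 13 for mCherry over control (10 in non-cycling and 3 in stem-like cells), 6 for mCherry over non_mCherry (2 in non-cycling cells, 0 higher), 0 for non_mCherry over control (0 in non-cycling, monocyte-directed and lymphoid-primed cells), and 0 higher in cycling non_mCherry cells. Myc was no longer higher in mCherry than in non_mCherry (0 genes) with median-of-ratios scaling, 20 CPM added, the Malat1 range or without B-like cells, and 0 genes were lower in non_mCherry than in control with 20 CPM added or without B-like cells. For mCherry over non_mCherry, 8 genes were lower in the Malat1 range (11.3% of all genes). In non-cycling cells that comparison gave 23 lower genes when thinned (17.9% of all genes), 17 with median-of-ratios scaling (15.3%), 16 at 6000 to 12000 UMIs (13.1%), 16 without B-like cells (12.9%), and 4 lower (9.04%) and 1 higher (13.9%) with the wider cycle list. In non-cycling cells, 3 genes were lower in non_mCherry than in control with 1 CPM added (1.78%). Requiring 3 UMIs for a cycling call gave 3 (control), 8 (non_mCherry) and 6 (mCherry) genes higher in cycling cells, beside 5.07%, 8.43% and 8.10% of all genes, so that the control count lies near the background; for non_mCherry the count was 0 when thinned (4.0%) and 6 with 1 CPM added (8.06%). Within lineages, 4 genes were lower in non-cycling erythroid-like cells of non_mCherry (5.10% of all genes), and 1 in megakaryocyte-like cells with the stricter score (1.11%). Non_mCherry stem-like cells with the stricter score (76) or not cycling (75), and the non-cycling megakaryocyte-like (97), monocyte-directed (53), basophil-like (95) and lymphoid-primed cells (59), were under 100 in a library and were not run.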

Other observations

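Other translation gene lists, measured in the same way, differed in how they stood between mCherry and control. Of 84 cytosolic ribosomal protein genes, 81 passed the filter, of which 6 were lower and 1 higher in mCherry, beside 20.3% and 24.3% of all genes, with a median log2 ratio of -0.16. Of 77 mitochondrial ribosomal protein genes, 76 passed, of which 56 were lower and 0 higher, with a median of -0.83; in non-cycling cells 40 were lower and 0 higher, beside 16.3% and 18.4% of all genes, with a median of -0.61. The cytosolic list thus lay near the median of all genes (0.07), while the mitochondrial list lay close to the 34 nucleolar genes (-0.94). These lists were not compared by a test.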
